A study of Mus musculus with 6 samples.

Results

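Small nucleolar RNAs (snoRNAs) are short nuclear RNAs, and most of those named in mammals lie inside introns of longer genes, the host genes. The host genes studied here were the protein_coding, lincRNA and processed_transcript genes of GENCODE mouse release M21 on chromosomes 1 to 19 that hold, on the same strand and over its whole length, at least 1 gene of type snoRNA whose symbol starts with Snora or Snord. Ribosomal protein genes, Ncl, Npm1, Nop56, Nop58, Dkc1, Rian, Snrpn and Meg3 were left out. This gave 58 host genes among 26769 genes of these types, 37 of them protein coding and 21 noncoding. They hold 96 of the 136 Snora and Snord genes on these chromosomes.

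The mark was dimethylated lysine 79 of histone H3 (H3K79me2), mapped by chromatin immunoprecipitation and sequencing in N2a, a cell line grown from a mouse neuroblastoma. Cells were transfected with a pLKO.1 plasmid carrying a non-target hairpin (CTR) or a hairpin against Npm1 (NPM1 KD), selected with puromycin from the day after and collected at 72 h, which the labels give as 3 days in vitro. Each group had 2 libraries from independent biological replicates, and 1 pooled input per group that had no peak list analysed here. A single hairpin was used, and transfected cells were selected as a pool, so an effect of this hairpin on other targets cannot be told apart from loss of NPM1.

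The broad lists held 34845 to 48764 peaks per library and the narrow lists 73801 to 88348. Together the broad peaks spanned 236.1 and 223.4 Mb in the CTR libraries and 253.2 and 244.4 Mb in the NPM1 KD libraries. Read counts were not analysed. Relative depth was taken as the background pileup that the fold and −log10 p of narrow peaks imply. Whether the pooled input entered that background is not given in the sources used here. The solved pileup was lowest in CTR 2 (7.65) and NPM1 KD 1 (8.99) and higher in NPM1 KD 2 (11.8) and CTR 1 (11.9). Of 11 markers of sympathetic neuroblastoma 9 carried a broad peak in every library, and Dbh carried none. Of 9 markers of other cell types only Pecam1 had a peak, over 0.255% of its body in CTR 1. The knockdown itself cannot be checked from these lists, which hold neither RNA nor protein levels. The study reports immunoblots of the replicates used for sequencing, with less NPM1 and more H3K79me2 after the knockdown.

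Box C/D snoRNAs (Snord) guide 2′-O-methylation and box H/ACA snoRNAs (Snora) guide pseudouridylation, mainly of ribosomal RNA in the nucleolus, the compartment where NPM1 is most abundant. In mammals they have no promoter of their own in most cases. They are cut out of the spliced and debranched intron of the host, so their supply follows transcription of the host gene. Many noncoding hosts, such as Gas5 and the Snhg genes, give spliced transcripts that are quickly degraded. H3K79me2 is laid down by DOT1L along the transcribed part of active genes, with its highest level in the region after the start.

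The 96 snoRNA genes comprised 72 of the C/D class and 24 of the H/ACA class, and 2 loci had overlapping double entries, which left 94 distinct places. Of 102 pairs of snoRNA and host, 64 lay in an intron of every spanning transcript and 37 in an intron of some transcripts and an exon of others. None was exonic in every transcript, and for 1 of the Snord116 genes no transcript of the host spanned the place. The snoRNAs printed here are shown because the results turn on them or because they show the classes at their best known hosts. They are given on GRCm38, 5′ to 3′ on the strand of the gene, with positions counted from 1. Capitals mark the first C box TGATGA in the leading 20 bases and the last D box CTGA in the trailing 15 bases of C/D snoRNAs, or the ACA in the trailing 10 bases of H/ACA snoRNAs. No capitals means that these letters were not in these windows.
Snord47 (chr1:161038082-161038158, plus strand, in Gas5): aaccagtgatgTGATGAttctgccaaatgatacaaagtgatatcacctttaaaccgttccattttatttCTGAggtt
Snord99 (chr4:132310691-132310764, plus strand, in Snhg12): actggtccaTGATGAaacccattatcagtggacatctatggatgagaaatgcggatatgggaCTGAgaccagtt
Snora61 (chr4:132310240-132310369, plus strand, in Snhg12): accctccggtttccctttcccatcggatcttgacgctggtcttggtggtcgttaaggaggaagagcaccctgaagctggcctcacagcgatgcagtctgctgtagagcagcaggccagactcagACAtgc
Snora73a (chr4:132352775-132352979, minus strand, in Snhg3 and Rcc1): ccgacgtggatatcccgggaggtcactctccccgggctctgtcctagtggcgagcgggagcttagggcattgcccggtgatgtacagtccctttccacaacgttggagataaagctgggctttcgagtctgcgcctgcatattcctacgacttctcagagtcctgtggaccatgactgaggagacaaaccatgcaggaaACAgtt
Snora73b (chr4:132352322-132352526, minus strand, in Snhg3 and Rcc1): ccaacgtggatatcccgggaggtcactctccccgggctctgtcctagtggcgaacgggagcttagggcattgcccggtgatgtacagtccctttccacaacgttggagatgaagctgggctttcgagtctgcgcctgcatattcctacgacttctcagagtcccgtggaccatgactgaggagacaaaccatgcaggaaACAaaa
Snord23 (chr7:15938762-15938870, minus strand, in Nop53): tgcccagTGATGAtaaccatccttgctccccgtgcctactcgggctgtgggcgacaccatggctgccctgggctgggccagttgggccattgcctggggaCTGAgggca
Snord90 (chr2:37400047-37400157, minus strand, in Rc3h2): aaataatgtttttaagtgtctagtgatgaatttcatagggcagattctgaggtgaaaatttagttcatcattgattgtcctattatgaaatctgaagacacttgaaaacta
Snord116l1 (chr7:59894620-59894713, minus strand, in Snhg14): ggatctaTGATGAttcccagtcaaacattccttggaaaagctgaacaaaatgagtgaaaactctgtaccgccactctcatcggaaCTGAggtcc
Snord123 (chr15:32241853-32241923, minus strand, in Snhg18): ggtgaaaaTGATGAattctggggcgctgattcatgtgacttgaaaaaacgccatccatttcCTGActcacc
Snord47 and Snord99 come from hosts wholly or almost wholly under the mark, Snora61 from the same host as Snord99. The Snora73 pair has 7 differing bases over 205 bp, an identity of 96.6%. The C box letters were found in 54 of 72 C/D genes (75%) and in 22.5% of all 1442 snoRNA genes on these chromosomes, and the D box letters in 67 of 72 (93.1%) against 32.5%. The trailing ACA was found in 22 of 24 H/ACA genes (91.7%) against 46.6%. Both boxes were found in all 17 Snord116 genes, of which 14 share a single sequence.

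The first question was how much of the host genes lay under H3K79me2. A broad peak was present in all 4 libraries at 57 of 58 host genes (98.3%), against 42.8% of all 26769 genes and 91.7% of 96 ribosomal protein genes. The exception was Snhg18. The median share of the gene body under broad peaks was 96.9% and 96.4% in the CTR libraries and 97.7% and 97.3% in the NPM1 KD libraries. Over the 12355 genes with a broad peak in at least 1 library the same medians were 51.7%, 47.1%, 56.9% and 53.1%. In the narrow lists the host medians were 95.1%, 93.4%, 92.9% and 93.6%. Requiring a −log10 q of at least 5 left the same number, 57 host genes with a peak in all 4 libraries.

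**Figure D1:**
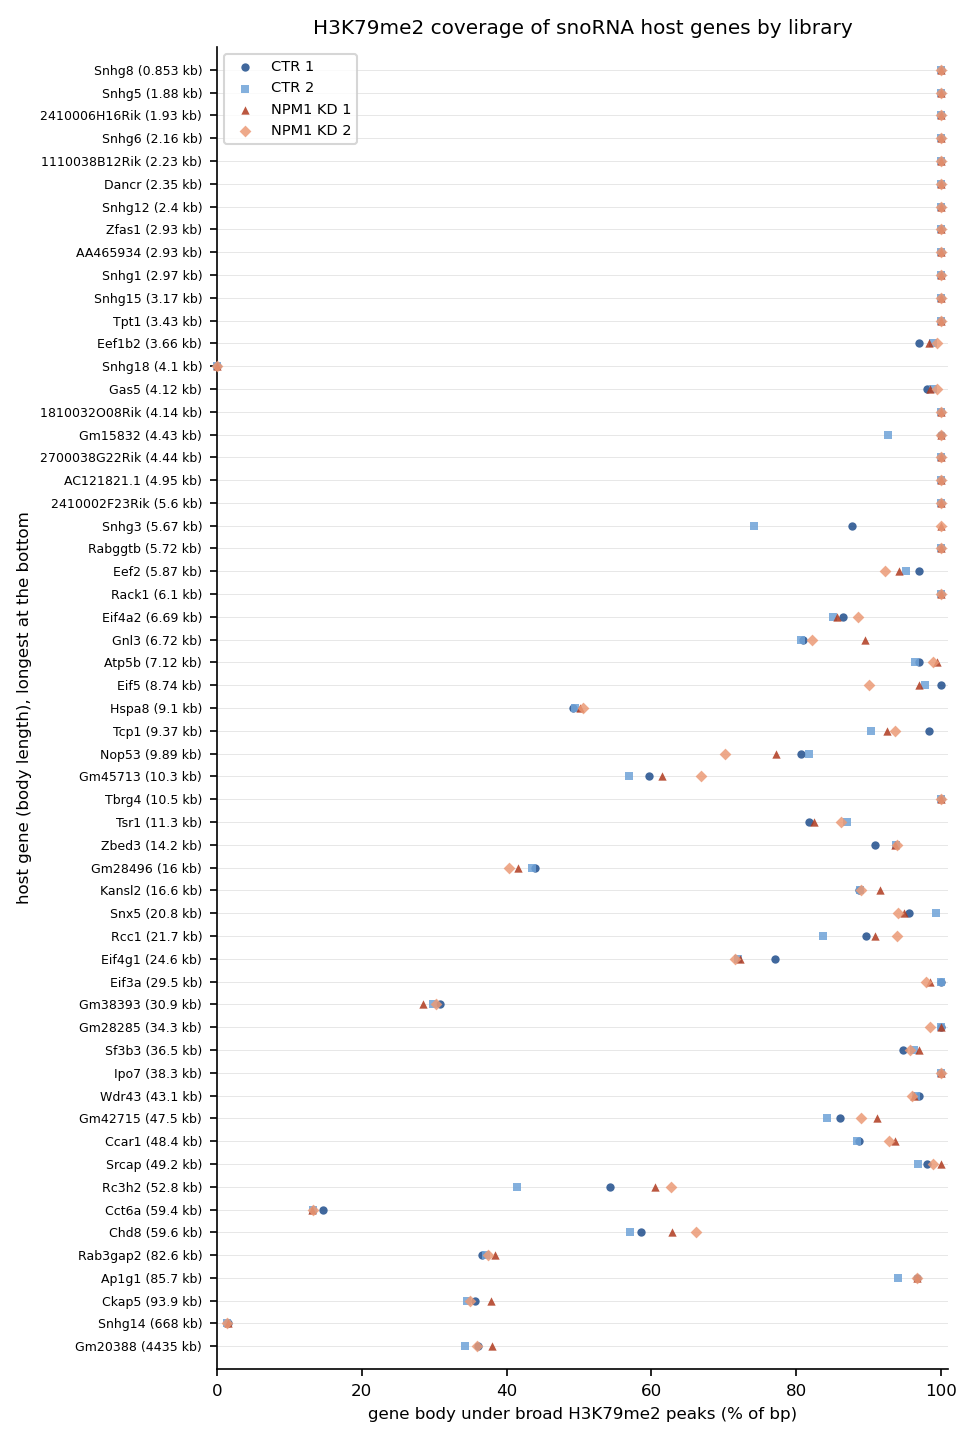
Share of the gene body under broad H3K79me2 peaks (x axis, % of bp) for 57 of the 58 host genes (y axis, ordered by body length with the longest at the bottom), with 1 point per library. Most host genes sit near 100% in all 4 libraries, Snhg18 sits at 0, and the low values belong mostly to long genes such as Snhg14, Cct6a and Gm38393.

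Body length bears on this share, because a domain of given size fills a short gene. Host bodies had a median of 9235.5 bp, with 3170 bp for noncoding and 20784 bp for coding hosts, against 14956 bp for all genes. In all 4 libraries 20 host genes (34.5%) were wholly covered, 14 noncoding and 6 coding, against 8.28% of genes with a peak and 58.3% of ribosomal protein genes. Among bodies under 5 kb, 15 of 19 host genes were wholly covered (78.9%), against 32.2% of genes of that length with a peak. From 5 to 20 kb these were 4 of 18 (22.2%) against 9.47%. From 20 kb upward 1 of 21 host genes was wholly covered (4.76%, against 1.6%), whereas a mean share of at least 90% was reached by 10 of 21 (47.6%, against 10.8%). Within each class of length the host genes were thus above the genes with a peak, and no test was attached because the members were not drawn at random.

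The mark was followed from the annotated start. At the start itself 86.2% to 89.7% of host genes were under a broad peak, against 48.4% to 60.3% of genes with a peak. At 1 kb downstream it was 93.0% in every library. Ribosomal protein genes had 92.0% to 94.3% there. At 5 kb, with 39 host genes still long enough, it was 89.7% to 94.9% against 63.1% to 68.1%. At 20 kb, with 21 host genes, it was 81.0% to 85.7% against 43.4% to 48.2%. Unbroken coverage from the start was measured with gaps up to 500 bp closed and cut at the gene end, so it cannot exceed the body. Its median over host genes was 5704 and 5660.5 bp in the CTR libraries and 5892.5 and 5768.5 bp in the NPM1 KD libraries. Over all genes with a peak it was 4674 and 4419 bp in CTR and 5410 and 4814 bp in NPM1 KD. Coverage did not begin at the annotated start of Zbed3, Eif4g1 and Snhg14, which carried their peaks further inside.

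**Figure D2:**
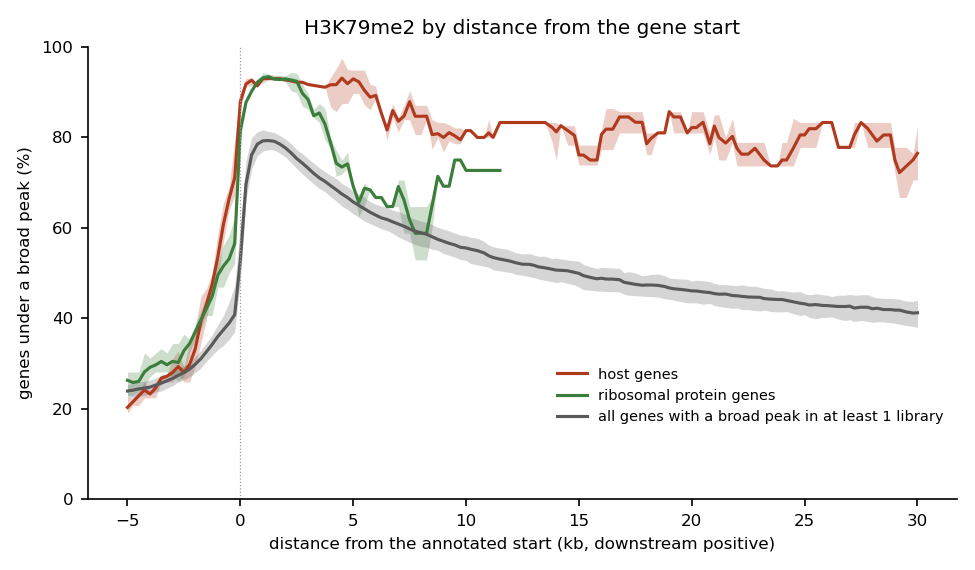
Share of genes under a broad peak (y axis, %) by distance from the annotated start (x axis, kb) for host genes, ribosomal protein genes and all genes with a broad peak. Lines are means of the 4 libraries and bands run from the lowest to the highest library. Only genes long enough to reach a distance are counted there, so host genes fall from 57 at 1 kb to 17 at 30 kb. The ribosomal protein line ends where fewer than 11 genes remain.

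The fold of a peak, the ratio of its pileup to the local background used in calling, was ranked within its own list. The lists differ in length and the ranks shift with the number of weak peaks. Ranks are therefore read between genes of a library and not as a change between the groups. The highest broad peak over a host gene ranked at a median percentile of 97.1 and 95.5 in the CTR libraries and 96.6 and 96.2 in the NPM1 KD libraries, against 86.8 to 90.2 for all genes with a peak. A mean percentile of at least 95 was reached by 34 of 57 host genes (59.6%). Among the 11469 genes with a broad peak in all 4 libraries the share was 24.5%, and among the ribosomal protein genes of these it was 67.0%. The highest ranks, with at least 99.2 in every library, belonged among others to Atp5b (the beta subunit of mitochondrial ATP synthase), Eef2 (the elongation factor that moves the ribosome along the mRNA), Snhg15, Rcc1 and Chd8. The lowest belonged to Snhg14, at 82.2, 79.8, 82.2 and 80.2. Tpt1 ranked low for a wholly covered gene, at 85.4, 83.1, 86.0 and 86.3. The strongest narrow summit lay at a median of 672 to 1098.5 bp from the start.

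Among the noncoding hosts named Gas5 or Snhg, which have no known protein product, 6 of 10 were wholly covered in every library. These were Snhg1, Snhg5, Snhg6, Snhg8, Snhg12 and Snhg15. Gas5 (ENSMUSG00000053332.13, chromosome 1, 161034422 to 161038539, plus strand), a growth-arrest transcript that holds Snord47, Snord78 and Snord80, was covered to 98.0%, 98.9%, 98.5% and 99.4% in CTR 1, CTR 2, NPM1 KD 1 and NPM1 KD 2. The groups overlapped. The highest broad peak of Gas5 ranked at percentiles of 89.9 to 92.8 in the 4 lists. Snhg8 is the shortest host, with 853 bp, and it lay wholly under a peak of 4720 to 5432 bp. Cct6a, also of a noncoding type in this release, was covered to 13.2% to 14.6% and is described below with the chaperone hosts. The 7 remaining noncoding hosts outside the predicted genes were wholly covered in all 4 libraries, among them Dancr, Zfas1, 1810032O08Rik and 2410006H16Rik. A covered share of 100% cannot rise, so for these genes a gain within the body could not be seen.

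In what follows, a gain or a loss names the order of the libraries, with both NPM1 KD libraries above or below both CTR libraries, and not a difference that passed a test. Of all genes with a broad peak, 42.3% had a gain and 2.92% a loss in this sense. Snhg3 (ENSMUSG00000085241.7, chromosome 4, 132348014 to 132353686, minus strand) had the widest gap between groups of all hosts. It holds Snora73a and Snora73b, printed above. Broad peaks covered 87.7% of its body in CTR 1, 74.1% in CTR 2 and 100% in both NPM1 KD libraries, a difference of the means of 19.1 percentage points. The unbroken domain from the start ran 4973 bp, 3939 bp, 5673 bp and 5673 bp. In the narrow lists 84.2%, 73.9%, 92.3% and 93.5% were covered, again with no overlap. In limma the change in log2(covered bp + 1000) was 0.26 ± 0.09 (SE), which did not pass (Benjamini-Hochberg adjusted p = 0.387). Rcc1, the nucleotide exchange factor of Ran, has its start beside that of Snhg3 and shares its first part and both snoRNAs with it. Its body was covered to 89.6%, 83.7%, 90.9% and 93.9%, so this pair counts as 2 host genes but shows 1 stretch of chromatin.

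Snhg14 and Snhg18 were the hosts with least mark. Snhg14 (ENSMUSG00000100826.6, chromosome 7, 59307924 to 59975759, minus strand) spans 667836 bp of the imprinted Snrpn region and holds 17 Snord116 genes. Broad peaks covered 1.56%, 1.46%, 1.61% and 1.45% of it, and no Snord116 gene lay under a peak in any library, broad or narrow. However, 14 of these 17 genes share a single sequence, and reads were filtered at a mapping quality above 5. Reads that match several copies may thus have been lost, so a lack of peaks there does not show a lack of the mark. This was not tested. Gm38393, which overlaps the start of Snhg14 and holds Snord64 and Snord107, was covered to 30.8%, 29.8%, 28.4% and 30.3%. Snhg18 (ENSMUSG00000096956.2, chromosome 15, 32240565 to 32244662, minus strand) had no peak in any of the 8 lists. Its start lies 148 bp from that of Sema5a on the other strand.

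Among the coding hosts, 8 genes act in translation. Rack1, a protein of the small ribosomal subunit, and Tpt1, the translationally controlled tumour protein, were wholly covered in all 4 libraries. Eef1b2, the exchange factor of eEF1A, was covered to 96.9%, 98.9%, 98.3% and 99.4%. The initiation factor genes Eif4a2 and Eif4g1 had overlapping groups in the broad lists, with 86.5%, 85.1%, 85.6% and 88.5% at Eif4a2. The narrow lists gave a loss at Eif4g1, with 73.0% and 72.0% in CTR against 70.7% and 68.8% in NPM1 KD. The other 3 of the 8 lay lower in both NPM1 KD libraries in the broad lists. Eef2 was covered to 96.9% and 95.2% in CTR against 94.2% and 92.3% in NPM1 KD. At Eif5 broad peaks covered 8737 and 8541 bp against 8476 and 7859 bp of a body of 8737 bp, and at Eif3a 100% and 100% against 98.5% and 97.9%. None of the 8 had a gain, which Rack1 and Tpt1 could not show, being wholly covered. These counts stand beside 42.3% of genes with a gain and 2.92% with a loss over all genes with a peak, and the roles were assigned with the values known. These 3 also had separate groups in the same direction in the narrow lists, and none passed limma (Benjamini-Hochberg adjusted p = 0.465 at Eef2, 0.563 at Eif5 and 0.391 at Eif3a).

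The 4 hosts with roles in ribosome assembly went in different directions. Nop53, which recruits the exosome to pre-ribosomes, was covered to 80.7% and 81.8% in CTR and to 77.2% and 70.2% in NPM1 KD, the largest loss among the hosts, with a difference of -7.58 percentage points and much of it from NPM1 KD 2. The narrow lists did not separate the groups at Nop53, with 71.6%, 66.7%, 71.7% and 67.7%. Wdr43, a subunit of the small-subunit processome, had 96.9% and 96.5% in CTR against 96.2% and 95.9% in NPM1 KD, a difference of -0.636 percentage points, and the narrow lists gave 95.0% and 94.3% against 95.7% and 95.4%, the opposite order. Gnl3, which codes for nucleostemin, had 80.9% and 80.6% in CTR against 89.5% and 82.1% in NPM1 KD, but the narrow lists gave 80.5% and 79.6% against 70.6% and 76.5%, the opposite order. Tsr1 had overlapping groups. Of the 3 chaperone hosts, Hspa8 had 49.2%, 49.4%, 50.1% and 50.6%, a gain of 1.07 percentage points. Tcp1, a chaperonin subunit, had overlapping groups in the broad lists, but its narrow values gave a gain, with 85.9% and 83.3% against 87.5% and 93.6%. Cct6a, another subunit, has an entry of type processed_transcript in this release that spans 59374 bp, and 13.2% to 14.6% of it was covered.

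Of 5 hosts that act on chromatin or chromosomes, 4 had a gain and none a loss, where 42.3% of all genes with a peak, and 46.1% of those not wholly covered, had a gain. The roles were assigned with these values known, so the count describes these 5 genes and no class. Chd8, a chromatin remodeller, had 58.6% and 57.0% in CTR against 62.9% and 66.1% in NPM1 KD. At Rcc1 the mean difference was 5.77 percentage points, at Srcap, the catalytic subunit of a remodelling complex, 2.04, and at Kansl2, a subunit of an acetyltransferase complex, 1.45. At Kansl2 the gap rested on NPM1 KD 1, since NPM1 KD 2 (88.9%) was close to CTR 2 (88.8%). The narrow lists did not separate the groups at Kansl2, with 88.7% and 88.8% in CTR against 89.1% and 88.8% in NPM1 KD. Ckap5, a microtubule polymerase, had overlapping groups in the broad lists, but its narrow values gave a gain, with 28.4% and 28.4% against 28.8% and 31.0%. Rc3h2, an RNA-binding ubiquitin ligase, showed the next largest gain after Snhg3, from 54.3% and 41.4% to 60.5% and 62.7%, which is 13.7 percentage points. CTR 2 set much of it, as the CTR libraries differed by almost as much. Its log2 change in limma was 0.36 ± 0.17 (SE; Benjamini-Hochberg adjusted p = 0.468). The predicted gene Gm45713, which holds 4 snoRNAs, had 59.7% and 56.9% against 61.5% and 66.8%. The predicted gene Gm28496 had 43.9% and 43.5% in CTR and 41.6% and 40.4% in NPM1 KD. Its narrow values, 43.7% and 37.7% against 41.2% and 40.1%, overlapped.

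Long coding hosts could also be covered almost from end to end. Ipo7, a nuclear import receptor for ribosomal proteins among others, was wholly covered over 38336 bp. Ccar1 had 88.6% and 88.4% in CTR against 93.6% and 92.8% in NPM1 KD, and its narrow values, 80.4% and 77.5% against 82.8% and 87.4%, were in the same order. Of 7 hosts in transport, membranes and mitochondria, Ipo7, Rabggtb and Tbrg4 were wholly covered in all 4 libraries. Gains were seen at 3 of the 7, close to the 42.3% of all genes with a peak, namely at Ap1g1, a subunit of a clathrin adaptor, Atp5b and Rab3gap2. The narrow values of Atp5b, 96.7% and 93.9% in CTR against 99.0% and 93.6% in NPM1 KD, overlapped. Rab3gap2 had 36.6% and 37.1% against 38.4% and 37.4%, the smallest gain of all hosts, at 1.03 percentage points. Snx5, a sorting nexin, had 95.6% and 99.3% in CTR against 94.9% and 94.0% in NPM1 KD, with a difference of -2.97 percentage points. Its narrow values, 95.1% and 92.9% against 91.2% and 93.0%, overlapped.

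The groups were then compared over all hosts for a difference in the extent of the mark. With 2 libraries per group, and 20 hosts wholly covered in all 4 libraries, a lack of calls does not show that the extent was unchanged. No host gene passed limma, and 2 of 12355 genes did (0.0162%), neither of them a host. With the replicate number as a block 0 genes passed. The smallest adjusted p of a host was 0.238, at Ccar1, a coactivator of cell-cycle genes. At an unadjusted p under 0.05 there were 5 hosts, 4 with more and 1 with less, against 1765 genes (14.3%) in all. The median log2 change was 0.000 over the 57 hosts tested and 0.074 over all genes. Among genes not wholly covered it was 0.018 over 37 hosts and 0.089 over all. With 2 libraries per group an exact permutation test of a single gene cannot pass the threshold.

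Counting hosts whose libraries did not overlap gave a more detailed description. At 14 of 57 host genes (24.6%) the covered length was greater in each NPM1 KD library than in each CTR library. The background share was 42.3% of all genes, and ribosomal protein genes had 12.4%. Both covered less at 7 host genes (12.3%), where the background was 2.92% and ribosomal protein genes had 1.12%. The 14 gains had a median of 4.8 percentage points and the 7 losses a median of -2.77. Among genes that were not wholly covered the shares were 14 of 37 (37.8%) against a background of 46.1% for gains, and 7 of 37 (18.9%) against 3.19% for losses. Among genes of at least 80% mean cover that were not wholly covered, they were 9 of 24 (37.5%) against 36.1%, and 5 of 24 (20.8%) against 4.11%. In the broad lists the share of gains in well covered hosts was therefore near that of other well covered genes. Losses were more frequent there than in each background, but they rest on 7 hosts, of which 3 were losses in the narrow lists too. The 7 losing hosts were Eef2, Eif3a, Eif5, Gm28496, Nop53, Snx5 and Wdr43. The 14 gaining hosts held 2 pairs that overlap on the same strand, Snhg3 with Rcc1 and Srcap with Gm42715.

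**Figure D3:**
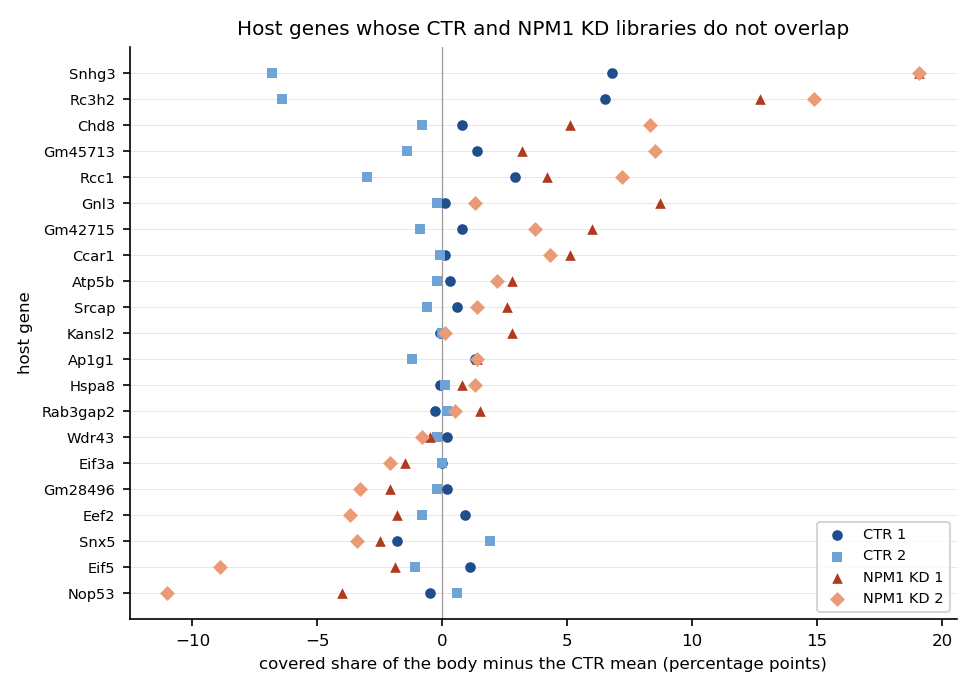
Covered share of the gene body minus the CTR mean (x axis, percentage points) for the 21 host genes (y axis) whose CTR and NPM1 KD libraries do not overlap, with 1 point per library. Gains reach 19.1 percentage points at Snhg3, where the CTR libraries also lie far apart, and the lowest mean difference is -7.58, at Nop53.

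In the narrow lists the gains were 17 of 57 (29.8%) against a background of 39.1% and the losses 5 of 57 (8.77%) against 4.13%. Gains in both kinds of list were shared by 11 hosts, and losses by Eef2, Eif3a and Eif5.

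**Figure D4:**
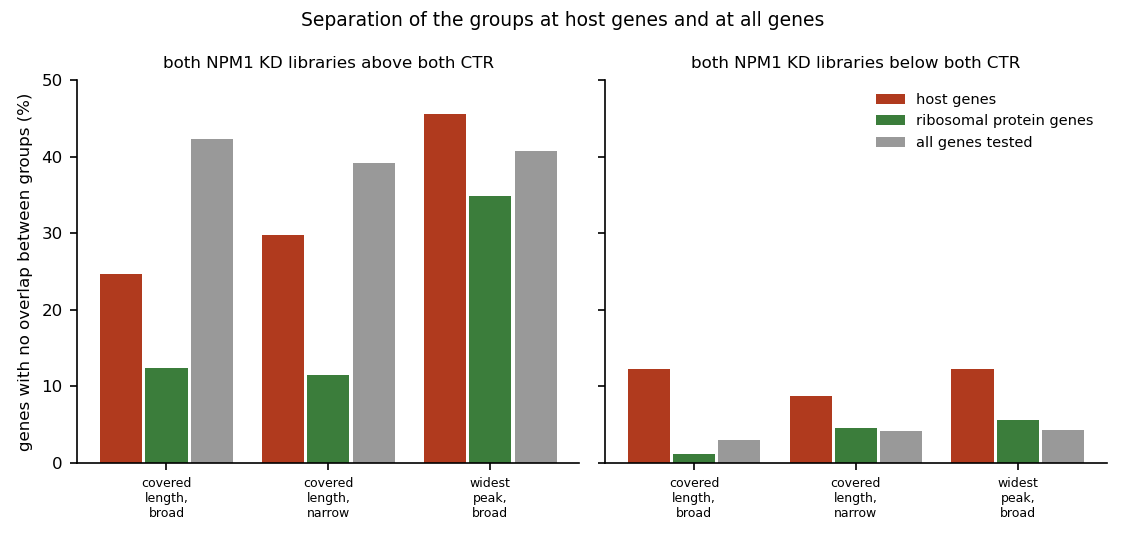
Share of genes (y axis, %) whose NPM1 KD libraries both lie above (left) or both below (right) both CTR libraries, by measure (x axis), for host genes, ribosomal protein genes and all genes tested. Host bars lie below the bars of all genes on the left for covered length and above them for the width of the widest peak, and lie above them on the right in all 3 measures.

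The full width of the widest broad peak over a host, not cut at the ends of the gene, gave another picture. Both NPM1 KD libraries were wider at 26 of 57 hosts (45.6%), close to the background of 40.7%, and narrower at 7 (12.3%) against 4.28%. The median width was 13.2 and 14.2 kb in the CTR libraries and 14.9 and 14.4 kb in the NPM1 KD libraries. At 32 hosts the widest peak was longer than the gene in every library, and at 31 hosts it touched at least 2 genes of the 3 types. Gm15832 was an example, where the peak measured 20060 and 7606 bp with the control hairpin and 42625 and 42050 bp after the knockdown while the body was covered to at least 92.6% in every library. Such peaks are not a property of the host alone.

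The snoRNA genes themselves were then placed under the peaks, since the rule did not use their position in the domain, and an overlap of 1 bp was counted. Of 96 entries, 72 lay under a broad peak in each CTR library, against 73 and 71 in the NPM1 KD libraries. Over all 1442 snoRNA genes on these chromosomes, of which 136 are Snora or Snord, the share was 23.6% to 24.4%. Among Snora and Snord genes alone, all 31 held by left-out hosts only were under a peak in each library. Those held by no gene of the 3 types were under a peak at 7 of 9 (77.8%) in each library, so such cover was not particular to the hosts. H/ACA genes were covered at 23 of 24 in every library. C/D genes were covered at 48 to 50 of 72, and at 48 to 50 of 55 outside Snhg14. In total 71 entries were under a broad peak in all 4 libraries, 23 in none, and 2 in part of the libraries. Snord23 in Nop53 was covered in both CTR libraries and NPM1 KD 1 but not in NPM1 KD 2. In the narrow lists it was touched in CTR 1 alone. Snord90 in Rc3h2 was covered in NPM1 KD 1 alone, and in no library in the narrow lists or at a −log10 q of at least 5. Both are printed above.

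Distance from the start of the host ordered the snoRNAs. The median distance was 3660.5 bp. Within 2 kb of the start 24 of 24 pairs were under a peak in all 4 libraries, from 2 to 5 kb 30 of 31, with Snord123 in Snhg18 the exception, and from 5 to 20 kb 17 of 18, with Snord23 the exception. From 20 kb upward it was 6 of 29, or 6 of 12 without Snhg14. Those not covered there lay in Chd8, Ckap5, Gm38393, Rab3gap2 and Rc3h2, all with partly covered bodies. The 6 that were covered included Snord71, 60741 bp into Ap1g1, which was covered to at least 94.1% in every library. Another was Snord68, 3192197 bp into the predicted gene Gm20388. That gene spans 4434882 bp and holds 50 other genes on its strand, so this distance does not measure how far a domain reaches from its start. At 50 hosts every snoRNA was touched by a broad peak in all 4 libraries. The lowest mean cover among them was 13.6%, at Cct6a, where the edge of the peak crossed Snora15 and did not hold the whole snoRNA gene in any library.

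**Figure D5:**
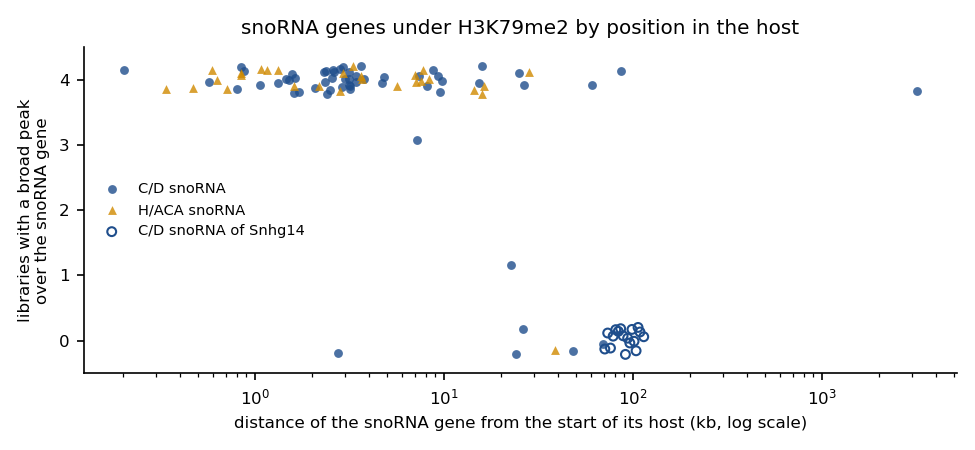
Number of libraries with a broad peak over a snoRNA gene (y axis, points spread vertically to be seen) by its distance from the start of the host (x axis, kb, log scale) for 102 pairs of snoRNA and host, by class, with the Snord116 genes of Snhg14 as open circles. Pairs within 2 kb are covered in all 4 libraries, and from 20 kb upward uncovered pairs dominate.

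The promoters of the hosts were read for a feature that genes of the translation machinery often share, a run of pyrimidines (C or T) at the start. The RefSeq table on GRCm38.p6 matched 45 of 58 hosts by symbol, and the start nearest to the GENCODE start was taken. It still lay 4414 bp away at Eif4g1, 7855 bp at Rcc1 and 474418 bp at Snhg14. For these 3 the promoter read is not the one at the start used for coverage. A run of at least 8 pyrimidines touching the 10 bases on either side of the start was found in 9 of 45 hosts (20%), 34.0% of ribosomal protein promoters and 13.7% of all 32851 promoters. The palindrome CACGTG, the E-box letters, was found in the promoter windows of the table in 11 of 45 hosts (24.4%), 8.51% of ribosomal protein promoters and 7.15% of all promoters. The hosts also had a higher GC content, with a median of 62% against 52.7%. The windows of Rack1 and Ipo7, the hosts with the longest runs, and of Snhg12, whose snoRNAs are printed above, are shown, from 40 bases before to 30 after the RefSeq start, with the run in capitals.
Rack1 (chr11:48800320-48800389, plus strand): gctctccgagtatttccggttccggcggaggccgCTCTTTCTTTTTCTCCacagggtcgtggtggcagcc
Ipo7 (chr7:110018275-110018344, plus strand): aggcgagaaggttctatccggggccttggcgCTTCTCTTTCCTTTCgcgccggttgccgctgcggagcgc
Snhg12 (chr4:132308638-132308707, plus strand): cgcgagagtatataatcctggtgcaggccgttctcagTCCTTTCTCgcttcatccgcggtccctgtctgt
These 3 genes were wholly covered in every library. Rcc1, with a run of 11 bases at its distant RefSeq start, and Sf3b3, with 10, were not, and Snhg18, with 10, had no peak. A match of letters is a description and not a bound site.

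The other genes of the pathway were listed by their step. Of the snoRNP core proteins, which sit on every snoRNA, 7 genes lay on these chromosomes, all with a peak in all 4 libraries and a median cover of 99.2%. Their median log2 change was 0.004, and none had separate groups. Nop56, Nhp2 and Snu13 were wholly covered in every library, and Fbl, the methyltransferase of C/D particles, had 94.4%, 100%, 100% and 97.2%. Among 12 genes of snoRNP assembly 11 had a peak in all 4 libraries, with a median cover of 79.7%, and 9 were covered more in both NPM1 KD libraries and none less. Rpap3, a cochaperone, had 30.6% and 25.1% against 52.6% and 38.9%. Among 14 genes that release and trim intronic snoRNAs, 6 had this order and none the reverse, with a median log2 change of 0.152. Dbr1, which opens the intron lariat, had overlapping groups, with 83.6%, 72.1%, 92.3% and 84.8% as the values per library. Among 9 genes of nonsense-mediated decay it was 5 and none, with 0.127. No gene of these lists passed limma. Gains were thus seen at 75% of the assembly genes, 42.9% of the release and trimming genes and 55.6% of the decay genes, against 42.3% of all genes with a peak, and no test was attached to these shares.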

How the data were processed

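H3K79me2 chromatin immunoprecipitation was sequenced in 4 libraries of N2a cells, 2 per group, grouped by the sample labels. Per the study's methods, reads were aligned to mm10 with Bowtie2 2.3.4.1, filtered at a mapping quality above 5, and peaks were called with MACS2. The submitters' processing notes also name Trimmomatic 0.38, which the methods do not, and MACS2 2.2.6, where the methods name another release. Whether the pooled input served as background in calling is not given in the sources used here, and whether the narrow lists were called after the quality filter is unsure, since only the broad peak names carry the word filtered. The authors deposited broad and narrow peak lists, with a score per peak, a fold (ratio over the local background), −log10 p and −log10 q. These deposited −log10 p and −log10 q values were used for a stricter threshold and to solve the pileup. The broad fold is a mean over the peak and the narrow fold is that at the summit.

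Covered bp per gene body were summed from the lists over GENCODE M21 genes (GRCm38, the same build), with 1 bp as minimum overlap. Groups were compared with limma 3.58.1 (R 4.3.3) on log2(covered bp + 1000) over genes with a broad peak in at least 1 library, with Benjamini-Hochberg adjustment over all 12355 genes, two-sided, and 0.05 as threshold. The script was tested on simulated data. Tables were made in Python 3.11.15 with pandas 2.3.3, numpy 2.4.6 and scipy 1.17.1, and plots with matplotlib 3.10.9. The p-values measure the spread between biological replicates. Per the study's methods, each replicate was another passage, transfected in a batch of its own. This may tie same-numbered libraries of both groups to a batch, but the labels do not state it, so the block by replicate number was run as an alternative.

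The host genes, the pathway lists and the tests were chosen with earlier results of these data known. Genes named were all Gas5 and Snhg hosts, hosts known in translation, ribosome assembly or folding, the 5 others with most snoRNAs, the 5 per direction with the largest separate difference, and hosts with no peak. Every other host named was chosen after its values were seen. The values of 1 host gene and of 1 marker are not reported here, though both are in the counts. Fold percentiles depend on the length of each list, so their counts by group are not read as a change. In the broad lists 9 of 57 hosts ranked higher in both NPM1 KD libraries (15.8%) and 9 lower (15.8%). Over genes with a broad peak in all 4 libraries these shares were 28.4% and 4.19%. Of the hosts with a gain in covered length, Gm45713, Hspa8 and Snhg3 ranked lower and Ccar1, Chd8 and Rab3gap2 higher. Peak width and the counts within classes of cover were added after seeing the data. Sequences came from the GRCm38 genome and from RefSeq promoters (GRCm38.p6). The lists hold no read counts, so depth enters only through the solved pileup and no counting interval was computed.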

Additional observations from a re-analysis of the deposited data

How the results depend on the processing

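No host gene passed limma under any of 10 alternatives. The number of all genes that passed was 2, and it was 0 in the narrow lists, 63 when peaks under a −log10 q of 5 were dropped, 4 with a pseudocount of 200 bp, 0 with 3 kb upstream added and 0 to 0 when each library was left out in turn, where a group of 1 library is assumed to vary like the other. A mean of at least 1000 covered bp left 2. With the replicate number as a block, 0 genes and 0 host genes passed. Same-numbered libraries deviated together with a correlation of 0.238, but 2 pairs give a single such value, and whether the numbers pair the samples is not settled by the labels. Hosts covered more in both NPM1 KD libraries numbered 14, and 13 to 20 under 7 alternatives. Hosts covered less numbered 7, and 5 to 7 in other lists or regions. Leaving out 1 library in turn, an alternative chosen after seeing the data, gave 8 to 11, with 11 without CTR 2. Fewer libraries overlap less by construction.

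The difference of the host medians in covered share was 0.804 percentage points, and turned to -1.0 in the narrow lists and -0.278 under the stricter q, with 2.02 when 3 kb upstream was added and 0.559 to 1.05 without 1 library. The difference in unbroken coverage was 148.2 bp, and -13.5 bp in the narrow lists, with 86.2 to 210.2 bp without 1 library. The cause was not tested. The difference in snoRNA genes under a peak stayed from -1 to 1. Peak lists limit what can be seen where a gene is wholly covered.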
